A study of Mus musculus with 15 samples.

Results

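The WNT feedback and antagonist genes described here are Axin2, Apcdd1, Nkd1, Nkd2, Notum, Dkk1, Dkk2, Frzb, Lef1 and Rspo3, 10 genes taken by symbol from the 56092 named genes of a bulk RNA sequencing series of sorted mouse cells. All 10 were found in the deposited table of CPM (read counts scaled to 1000000 in each library), and all 10 passed the filter of at least 5 CPM in at least 2 of the 15 libraries. Dkk2 passed through 4 libraries only, the 3 Tbxt-derived libraries at 7 d and the FGF/CHIR double-negative library, so a difference between those libraries and the others was built into its selection by the filter.

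Every library came from 1 line of mouse embryonic stem cells, STR-KI. Its genotype is Sox2::mCherry/WT, Tbxt::GFP/WT, so that mCherry follows Sox2 and GFP follows Tbxt (Brachyury, listed under its older symbol T). The cells were turned into neuromesodermal progenitors (NMPs), which give rise to spinal cord and paraxial mesoderm, by 48 h in N2B27 medium with 10 ng/mL FGF2 and 24 h with FGF2 and 5 µM CHIRON99021 (CHIR). CHIR is a GSK3 inhibitor used to activate the WNT/beta-catenin pathway. The NMP group (3 libraries) was sorted for mCherry and GFP together. After 48 h more in FGF/CHIR, cells were sorted on mCherry (Sox2 48 h cells, 2 libraries) or on GFP (Tbxt 48 h cells, 2 libraries). Cultures of mCherry-positive cells kept for 7 d were sorted as mCherry-positive (Sox2+) or as negative for both reporters (DN). They gave 1 FGF/CHIR Sox2+ library, 1 FGF/CHIR DN library, 2 FGF Sox2+ libraries and 1 FGF DN library, where FGF stands for FGF without CHIR. GFP-positive cells cultured with FGF/CHIR for 7 d gave 3 libraries of cells that had lost both reporters (Tbxt DN cells). All groups therefore share the CHIR pulse of the NMP induction, and only the FGF groups went on without it. The labels do not settle whether the 7 d run from the NMP stage or from the 48 h sort. Nor do they say whether libraries of a group came from separate cultures, so p-values measure only the spread between these libraries, which may be technical. Groups with 1 library have no replicate check, and their tests use the spread of the replicated groups.

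In the canonical WNT pathway, WNT ligands bind frizzled and LRP receptors and keep beta-catenin from being degraded by the destruction complex, of which GSK3 is the kinase, so that beta-catenin joins TCF/LEF factors on target genes. Many of the targets restrain the pathway in turn: Axin2 rebuilds the destruction complex, Nkd1 and Nkd2 act on Dishevelled, Notum inactivates WNT ligands and Apcdd1 acts at the cell membrane. Dkk and Frzb proteins are secreted antagonists, R-spondins such as Rspo3 amplify the signal at the receptor, and WNT signalling in the caudal embryo maintains NMPs and favours their paraxial mesoderm fate.

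RefSeq promoter windows of 250 bases before to 50 bases after the annotated start (build GRCm38.p6, not the GRCm39 build of the expression files) were matched by symbol for 7 of the 10 genes, with 10 windows because Lef1 has several starts. The TCF/LEF core motif CTTTGAT, searched on both strands, was in none of the 10 windows, and 3.73% of all 32851 windows of this length hold it. Its variant CTTTGAA was in the Dkk1 window only, with its first base at -117, against 5.14% of all windows. Absence of these letters from the other 9 windows says nothing about TCF/LEF binding to these genes. The TATA box core TATAAA, looked for after the windows had been read, was at -54 in Dkk1, at -32 in Dkk2 and on the minus strand of 1 Lef1 window, against 13.6% of all windows, and does not overlap the TCF/LEF motifs. Shown are the 4 windows of genes on which the results turn. Axin2 (chr11:108920099-108920398, plus strand) and Nkd2 (chr13:73847582-73847881, minus strand) are feedback genes that were higher with CHIR. Dkk1 (chr19:30549447-30549746, minus strand) and Dkk2 (chr3:132085042-132085341, plus strand) are antagonist genes listed higher in DN than in Sox2+ cells of Sox2-derived cultures. The Dkk1 gate call was lost in 12 of 21 alternative runs, and the Dkk2 difference was built into its selection by the filter. Each is written 5′ to 3′ in the direction of the gene, and capitals mark CTTTGAA and TATAAA.
Axin2: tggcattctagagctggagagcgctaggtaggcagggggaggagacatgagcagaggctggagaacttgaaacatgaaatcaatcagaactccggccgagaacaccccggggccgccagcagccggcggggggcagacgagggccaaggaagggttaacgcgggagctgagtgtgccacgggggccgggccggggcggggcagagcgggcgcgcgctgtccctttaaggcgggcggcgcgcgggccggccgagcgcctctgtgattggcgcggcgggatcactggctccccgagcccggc
Nkd2: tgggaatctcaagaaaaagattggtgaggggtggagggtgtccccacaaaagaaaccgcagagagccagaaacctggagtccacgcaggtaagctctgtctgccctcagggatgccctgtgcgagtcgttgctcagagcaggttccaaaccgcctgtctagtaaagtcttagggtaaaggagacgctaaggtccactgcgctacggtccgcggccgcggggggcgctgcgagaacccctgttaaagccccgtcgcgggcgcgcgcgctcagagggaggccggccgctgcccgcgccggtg
Dkk1: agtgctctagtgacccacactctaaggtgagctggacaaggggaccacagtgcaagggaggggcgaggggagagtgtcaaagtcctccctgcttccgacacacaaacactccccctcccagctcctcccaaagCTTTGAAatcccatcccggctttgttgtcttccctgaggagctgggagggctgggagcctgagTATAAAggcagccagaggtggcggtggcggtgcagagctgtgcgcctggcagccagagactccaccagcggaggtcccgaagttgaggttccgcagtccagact
Dkk2: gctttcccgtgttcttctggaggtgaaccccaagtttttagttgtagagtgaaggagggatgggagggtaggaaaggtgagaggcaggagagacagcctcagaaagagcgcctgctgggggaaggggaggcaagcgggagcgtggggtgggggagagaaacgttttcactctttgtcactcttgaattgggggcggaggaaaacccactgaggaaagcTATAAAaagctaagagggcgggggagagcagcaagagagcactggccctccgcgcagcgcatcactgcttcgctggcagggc

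Depth, read from the most common nonzero value taken as 1 read, was 3.43 to 9.88 M reads (M for 1000000) in 14 libraries, where 3 reads are worth 0.304 to 0.874 CPM. It was 0.799 M reads in FGF Sox2+ replicate 2, where 3 reads are worth 3.76 CPM. These floors cover counting error only. Sox2 lay at 164 to 241 CPM and T at 284 to 445 CPM in the NMP libraries, Sox2 at 34.2 and 38.5 CPM in Tbxt 48 h cells, and T at 29.3 and 32.1 CPM in Sox2 48 h cells. The FGF DN library, sorted as negative for both reporters, held 29.1 CPM of Sox2 and 20.4 CPM of T, against 5.03 and 1.14 CPM in the FGF/CHIR DN library and at most 1.46 and 2.11 CPM in the Tbxt DN libraries. All 6 endoderm markers exceeded the floor in the FGF DN library, with a summed level of 1164 CPM, against 187 CPM in the FGF/CHIR DN library (Afp at 0) and 1.98 to 15.02 CPM in the other 13 libraries. The sum of 5 endothelium markers was 61.7 CPM there and 0.69 to 6.26 CPM elsewhere. Tbxt DN replicate 1 stood apart from its group, with r = 0.945 and 0.943 against replicates 2 and 3 over 12943 genes, which had r = 0.988 between them. FGF Sox2+ replicates 1 and 2 differed by more than 2-fold in 9.92% of the tested genes. Because all groups share 1 estimate of the spread, Tbxt DN replicate 1 also widened the errors of comparisons in which it takes no part, and results that change without it are given both ways. It was singled out because its values stood apart. Leaving it out narrows the shared estimate, so p-values without it may understate the spread. In bulk samples, fewer cells of a type and less RNA per cell cannot be told apart.

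**Figure D1:**
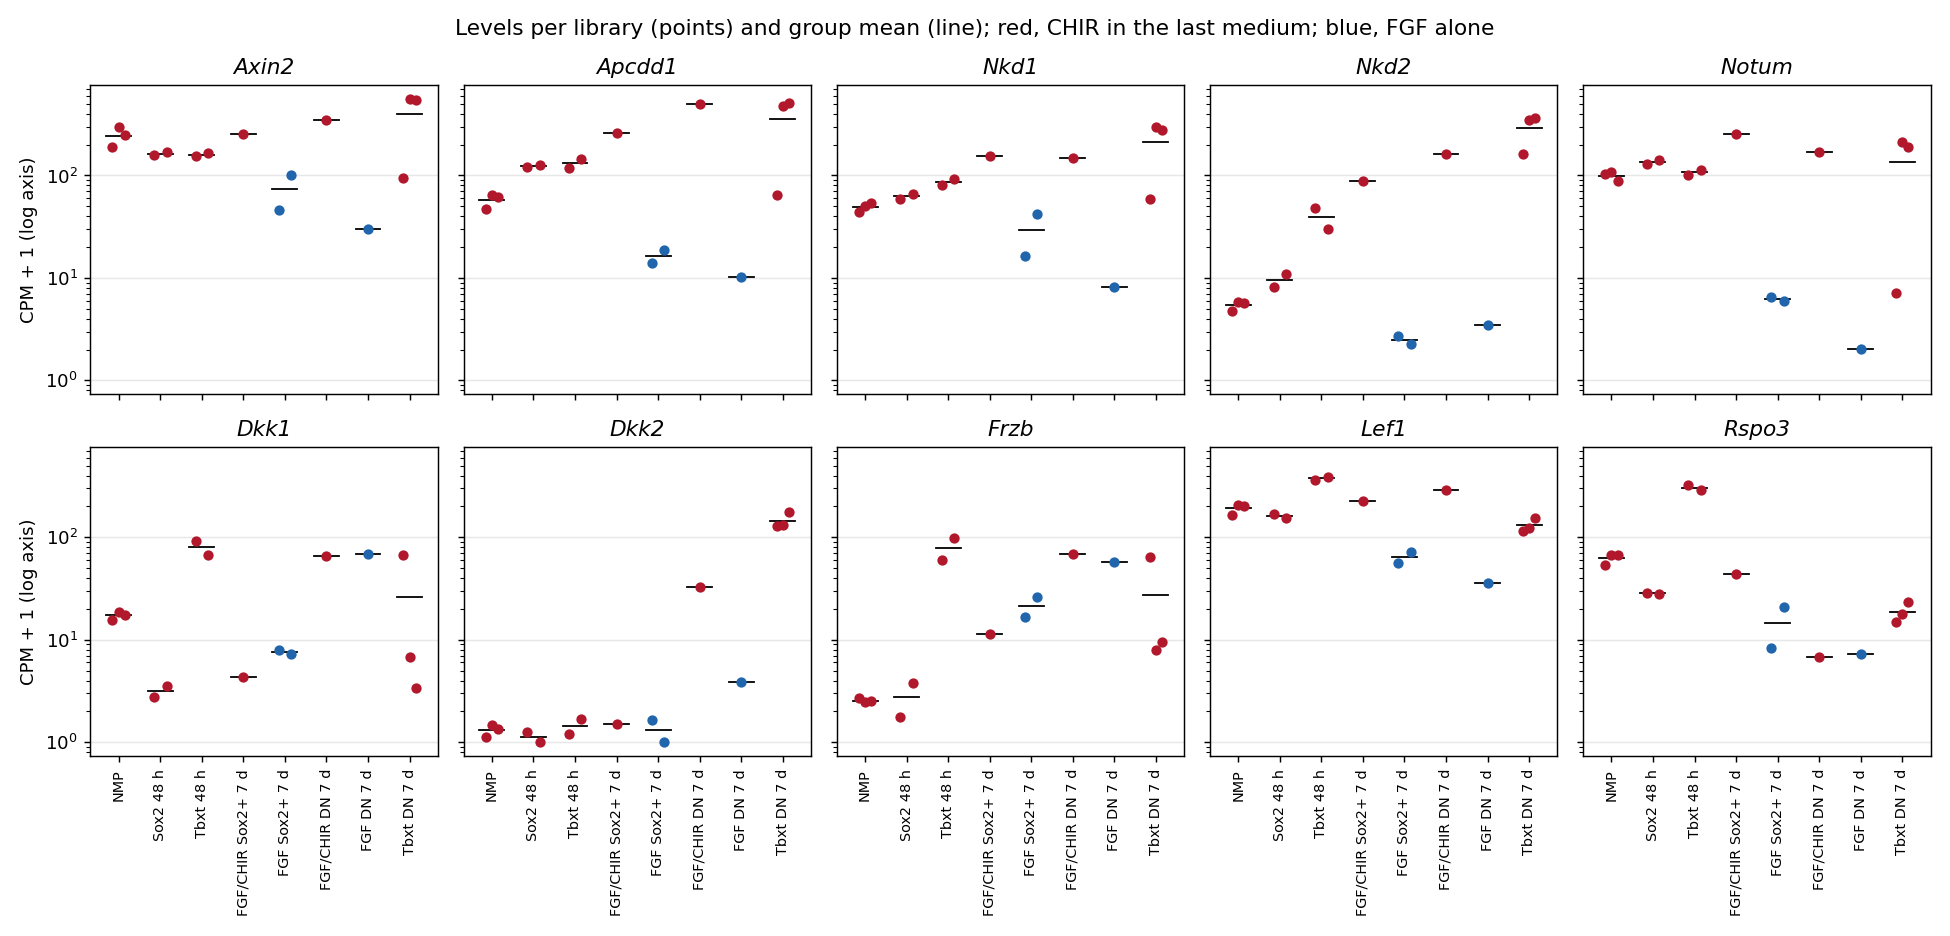
Levels of the 10 genes in each library (points; CPM + 1, log axis) by group, with the group mean as a line, red for groups whose last medium held CHIR and blue for FGF alone. Axin2, Apcdd1, Nkd1, Notum and Lef1 have their lowest group mean in FGF DN cells, and Tbxt DN replicate 1 lies away from the other 2 Tbxt DN libraries in 7 of the 10 panels.

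The feedback genes of the pathway were lower in Sox2-derived cultures kept without CHIR. In Sox2-derived cultures at 7 d, averaged over both gates, 7 of the 10 genes were higher in FGF/CHIR than in FGF (Axin2, Apcdd1, Nkd1, Nkd2, Notum, Dkk2 and Lef1), where 5.94% of all tested genes were higher (limma on log2(CPM + 1), Benjamini-Hochberg adjusted p under 0.05). Their median difference was 2.56 on that scale over the 10 genes and -0.03 over all tested genes. Dkk2 is counted here although its difference in the DN gate was built into its selection by the filter. More than 2-fold higher in both gates, as a description with no test, were 6 of the 10 (Axin2, Apcdd1, Nkd1, Nkd2, Notum and Lef1), against 2.6% of all tested genes. In the Sox2+ gate alone, an alternative chosen after the data were seen, 4 of the 10 were higher (Apcdd1, Nkd2, Lef1 and Rspo3), against 3.36% of all tested genes. Of the 4 groups in this comparison 3 held 1 library, and the DN libraries differed in their endoderm marker sum as given above. Cell type markers differed with the medium too. In FGF/CHIR cultures 6 of 8 neural progenitor markers were lower and 1 higher (median -3.10), 3 of 5 tested neuron markers were lower (median -2.33) and 5 of 10 mesenchyme markers were higher (median 1.66). In the Sox2+ gate the neural progenitor gene Sox1 was listed at 5.55 CPM with CHIR and at a mean of 146 CPM without. Zic1, of the same list, went the other way there, at 347 CPM with CHIR and a mean of 116 CPM without. The part of these differences in cell type in the values of the members was not tested.

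**Figure D2:**
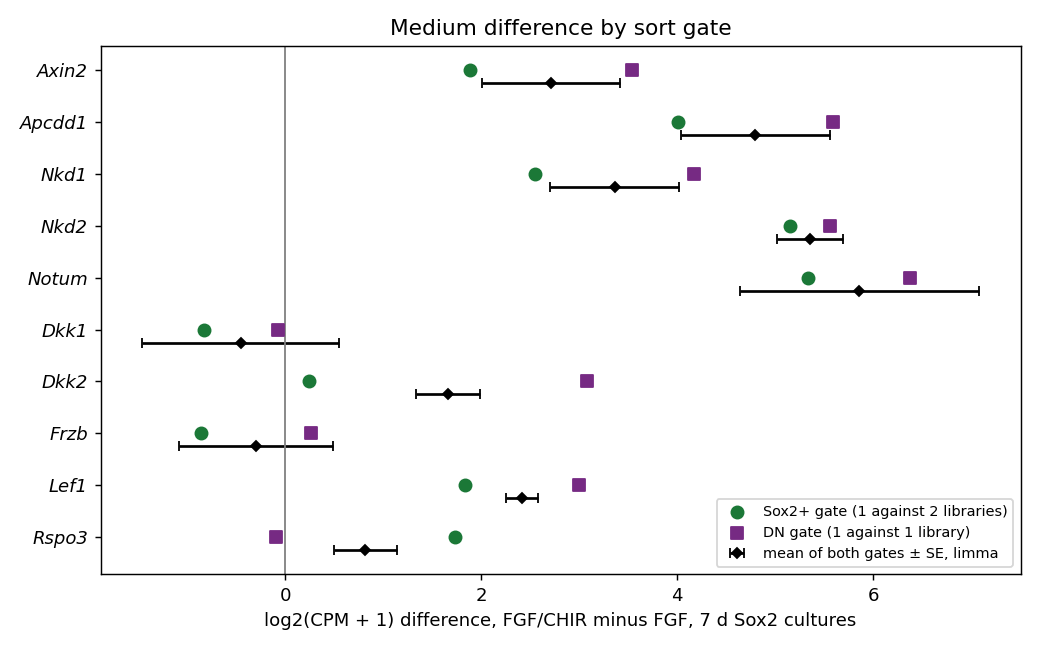
Difference of log2(CPM + 1) between FGF/CHIR and FGF cultures at 7 d for each gene in the Sox2+ gate (green circles, 1 against 2 libraries) and the DN gate (purple squares, 1 against 1 library), with the mean of both gates ± SE from limma (black diamonds). Nkd2 and Notum lie above 5 in both gates, Dkk2 at 0.24 in the Sox2+ gate and 3.08 in the DN gate, and Dkk1 and Frzb near 0 in the DN gate.

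Axin2, a scaffold of the destruction complex and a widely used readout of the pathway, was listed at 188, 296 and 250 CPM in NMPs. The 48 h libraries held 156 and 168 CPM (Sox2) and 153 and 165 CPM (Tbxt). At 7 d, the FGF/CHIR libraries held 251 CPM (Sox2+), 349 CPM (DN) and 93.5, 556 and 546 CPM (Tbxt DN), and the FGF libraries 45.2 and 100.2 CPM (Sox2+) and 29.1 CPM (DN). The FGF libraries of Sox2-derived cells lay below every FGF/CHIR library of Sox2-derived cells, with Tbxt DN replicate 1 inside their range. The FGF/CHIR minus FGF difference was 2.71 ± 0.71 (SE; limma adjusted p = 0.0340), and it missed the threshold in 7 of 21 alternatives, among them the Sox2+ gate alone (1.88, adjusted p = 0.249). Leaving out any NMP library, either Tbxt 48 h library or FGF Sox2+ replicate 1 gave an adjusted p of 0.0526 to 0.0600. From NMPs to either 48 h group the estimates were -0.57 ± 0.69 and -0.59 ± 0.69 and did not pass the test (adjusted p = 0.723 and 0.605), though the libraries did not overlap.

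Nkd1, which binds Dishevelled, was listed at 43.3, 49.0 and 53.3 CPM in NMPs, 58.6 and 65.4 CPM in Sox2 48 h cells and 79.9 and 91.8 CPM in Tbxt 48 h cells. With CHIR to 7 d it stood at 153 CPM (Sox2+), 147 CPM (DN) and 57.7, 296 and 274 CPM (Tbxt DN). Without CHIR it stood at 15.5 and 41.3 CPM (Sox2+) and 7.22 CPM (DN). All 3 FGF libraries lay below all the others. The medium difference was 3.36 ± 0.66 (limma adjusted p = 0.00924), and in the Sox2+ gate alone 2.54 (adjusted p = 0.103).

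Nkd2, the paralogue of Nkd1, spanned a wider range. It was listed at 3.76, 4.82 and 4.64 CPM in NMPs and 7.07 and 9.83 CPM in Sox2 48 h cells, against 47.5 and 29.2 CPM in Tbxt 48 h cells. FGF/CHIR cultures at 7 d held 86.6 CPM (Sox2+), 162 CPM (DN) and 159, 350 and 366 CPM (Tbxt DN). FGF cultures held 1.70 and 1.25 CPM (Sox2+), the latter 1 read, and 2.48 CPM (DN). In rising order, FGF Sox2+, FGF DN, NMP, Sox2 48 h, Tbxt 48 h and FGF/CHIR Sox2+ cells followed each other without overlap. Only the 2 highest groups, FGF/CHIR DN and Tbxt DN cells, overlapped. The lowest places rest on 8 and 1 reads (FGF Sox2+) and 12 reads (FGF DN, 1 library), so their order lies within counting error. The 3-read floor of FGF Sox2+ replicate 2, 3.76 CPM, is level with the lowest NMP library. Nkd2 passed the test in 6 of the 10 comparisons, a number exceeded only by Rspo3 with 7 and equalled by Lef1. It was higher in FGF/CHIR than in FGF by 5.35 ± 0.34 (limma adjusted p = 2.29e-06) and in Tbxt 48 h cells than in NMPs by 2.83 ± 0.33 (adjusted p = 0.000125). It was higher in Tbxt DN than in Tbxt 48 h cells by 2.84 ± 0.33 (adjusted p = 1.60e-05) and in FGF/CHIR Sox2+ than in Sox2 48 h cells by 3.23 ± 0.44 (adjusted p = 0.00225). In FGF Sox2+ cells it was lower than in Sox2 48 h cells (-1.92 ± 0.36, adjusted p = 0.00241). These 5 calls held in every alternative run, while the remaining call, Tbxt 48 h against Sox2 48 h cells (2.03 ± 0.36, adjusted p = 0.00738), missed the threshold without Tbxt 48 h replicate 1 (adjusted p = 0.0638). Gm8062, a gene that overlaps Nkd2 in RefSeq, was listed at 0 to 2.5 CPM, and whether the counting used strand is not given in the sources used here.

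Notum, a secreted carboxylesterase that removes the lipid WNT ligands need, was listed at 101.2, 107 and 86.8 CPM in NMPs, 129 and 141 CPM in Sox2 48 h cells and 99.9 and 112 CPM in Tbxt 48 h cells. Sox2-derived cells at 7 d held 251 CPM (Sox2+) and 168 CPM (DN) with CHIR, and 5.52 and 5.01 CPM (Sox2+) and 1.03 CPM (DN) without. The 3 Tbxt DN libraries gave 6.11, 211 and 190 CPM, so replicate 1, cultured in FGF/CHIR, lay next to the FGF libraries. The medium difference was the largest of the 10 genes at 5.86 ± 1.22 (limma adjusted p = 0.0127; 5.33 in the Sox2+ gate alone, adjusted p = 0.0731). Its error rests largely on Tbxt DN replicate 1: without it the adjusted p was 2.71e-11. In FGF Sox2+ cells Notum was lower than in Sox2 48 h cells by an estimate of -4.44 ± 1.30 (adjusted p = 0.0354), a call lost in 10 of 21 alternatives, including leaving out any NMP, Sox2 48 h, Tbxt 48 h or FGF Sox2+ library (adjusted p = 0.0526 to 0.130).

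Apcdd1, a membrane glycoprotein that inhibits WNT signalling, was listed at 46.1, 63.4 and 61.0 CPM in NMPs, 120 and 126 CPM in Sox2 48 h cells and 116 and 143 CPM in Tbxt 48 h cells. Cultures kept in FGF/CHIR held 257 CPM (Sox2+), 493 CPM (DN) and 63.5, 480 and 509 CPM (Tbxt DN). Those in FGF held 12.95 and 17.5 CPM (Sox2+) and 9.29 CPM (DN), below every other library. The medium difference of 4.80 ± 0.76 (limma adjusted p = 0.00343) passed in every alternative run, including the Sox2+ gate alone (4.01, adjusted p = 0.0370). Both 48 h groups lay above all NMP libraries, with estimates of 1.11 ± 0.74 and 1.18 ± 0.74 that did not pass the test (adjusted p = 0.462 and 0.307). Without Tbxt DN replicate 1 both passed (adjusted p = 0.000691 and 0.000250).

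Lef1, the TCF/LEF factor that is both an effector and a target of the pathway, was listed at 166, 206 and 201 CPM in NMPs, 168 and 153 CPM in Sox2 48 h cells and 363 and 386 CPM in Tbxt 48 h cells. The 7 d libraries held 227 CPM (Sox2+), 288 CPM (DN) and 115, 123 and 152 CPM (Tbxt DN) with CHIR, and 55.4 and 71.4 CPM (Sox2+) and 35.1 CPM (DN) without. Its highest group was Tbxt 48 h cells, 0.98 ± 0.16 above NMPs (limma adjusted p = 0.00117), and its 3 Tbxt DN libraries lay close together, unlike those of the feedback inhibitors. The medium difference was 2.42 ± 0.16 (adjusted p = 2.86e-06) and was 1.83 in the Sox2+ gate alone (adjusted p = 0.000247). It fell from Tbxt 48 h to Tbxt DN cells, with a difference of -1.53 ± 0.16 (adjusted p = 5.93e-06), and was lower in Tbxt DN than in FGF/CHIR DN cells by an estimate of -1.15 ± 0.20 (adjusted p = 0.00240; 0.0591 in a fit of these groups alone).

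Rspo3, a secreted amplifier of WNT signalling that acts with LGR receptors, was listed at 52.4, 65.6 and 65.5 CPM in NMPs, 27.5 and 27.2 CPM in Sox2 48 h cells and 322 and 288 CPM in Tbxt 48 h cells. Sox2+ cells at 7 d held 42.8 CPM (FGF/CHIR) and 7.22 and 20.03 CPM (FGF). DN cells held 5.71 CPM (FGF/CHIR) and 6.19 CPM (FGF), and Tbxt DN cells 13.98, 17.0 and 22.1 CPM. Both Tbxt 48 h libraries lay above every other library. The rise from NMPs to Tbxt 48 h cells was 2.30 ± 0.31 (limma adjusted p = 0.000386), and the fall from Tbxt 48 h to Tbxt DN cells was -4.05 ± 0.31 (adjusted p = 6.42e-07), both called in every alternative run. In Sox2-derived cultures at 7 d it was lower in the DN than in the Sox2+ gate (-1.79 ± 0.32, adjusted p = 0.00290). The medium difference over both gates was 0.82 ± 0.32 (adjusted p = 0.113), with 1.73 in the Sox2+ gate (adjusted p = 0.0224) and -0.10 in the DN gate. The difference between the gates in that response, -1.83 ± 0.64, did not pass the test (adjusted p = 0.183). Without FGF Sox2+ replicate 2, the shallow library, both passed, the medium difference at 1.16 (adjusted p = 0.00447) and the difference between gates at -2.51 (adjusted p = 0.0145).

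Dkk1, a secreted antagonist that blocks LRP co-receptors, was listed at 14.6, 17.8 and 16.5 CPM in NMPs, 1.77 and 2.51 CPM in Sox2 48 h cells and 91.5 and 65.5 CPM in Tbxt 48 h cells. Levels at 7 d were 3.29 CPM (FGF/CHIR) and 7.01 and 6.26 CPM (FGF) in Sox2+ cells and 64.5 CPM (FGF/CHIR) and 68.1 CPM (FGF) in DN cells. Tbxt DN cells gave 66.7, 5.74 and 2.37 CPM. The 3 groups at 48 h and before did not overlap. Between the 48 h groups Dkk1 was higher in Tbxt cells by 4.65 ± 1.07 (limma adjusted p = 0.0476), a call lost in 11 of 21 alternatives. Against NMPs the estimates were -2.47 ± 0.98 in Sox2 48 h cells (adjusted p = 0.187) and 2.18 ± 0.98 in Tbxt 48 h cells (adjusted p = 0.157). Without Tbxt DN replicate 1 these 3 comparisons gave adjusted p-values of 1.16e-06, 5.89e-05 and 8.03e-05.

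In Sox2-derived cultures Dkk1 followed the gate and showed no detected medium difference. It was higher in DN than in Sox2+ cells by 3.56 ± 1.01 (limma adjusted p = 0.0455), a call lost in 12 of 21 alternatives, 9 of them without 1 library each (adjusted p = 0.0542 to 0.0771). The FGF/CHIR minus FGF difference was -0.45 ± 1.01 (adjusted p = 0.807). From Tbxt 48 h to Tbxt DN cells the estimate of -2.76 ± 0.98 passed (adjusted p = 0.0381), although replicate 1 lay inside the 48 h range, and the call was lost in 10 of 21 alternatives. Without replicate 1 the difference was -4.04 (adjusted p = 1.39e-07).

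Frzb, a secreted frizzled-related protein that binds WNT ligands, was listed at 1.69, 1.45 and 1.51 CPM in NMPs and 0.76 and 2.74 CPM in Sox2 48 h cells, against 59.0 and 97.2 CPM in Tbxt 48 h cells. The Sox2+ libraries at 7 d held 10.5 CPM (FGF/CHIR) and 15.7 and 25.04 CPM (FGF), and the DN libraries 68.3 CPM (FGF/CHIR) and 57.0 CPM (FGF). The Tbxt DN libraries held 63.2, 6.93 and 8.43 CPM. Tbxt 48 h cells, both DN groups of Sox2 origin and Tbxt DN replicate 1 thus held the high values, as they did for Dkk1. The rise from NMPs to Tbxt 48 h cells was 4.91 ± 0.76 (limma adjusted p = 0.00196) and passed in every alternative run. Between the 48 h groups Frzb was higher in Tbxt cells by 4.90 ± 0.84 (adjusted p = 0.0109; 0.128 without Tbxt 48 h replicate 2). It was the only member higher in FGF Sox2+ than in Sox2 48 h cells (3.02 ± 0.84, adjusted p = 0.0263; lost in 5 of 21 alternatives). The fall from Tbxt 48 h to Tbxt DN cells, -2.19 ± 0.76 (adjusted p = 0.0338), was lost in 9 of 21 alternatives and was -3.15 (adjusted p = 5.14e-06) without Tbxt DN replicate 1. The gate difference of 2.03 ± 0.78 did not pass (adjusted p = 0.116; 0.000658 without Tbxt DN replicate 1).

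Dkk2, a Dkk1 paralogue that also binds LRP co-receptors, was at or under the 3-read floor in every NMP, Sox2 48 h and FGF Sox2+ library and lay at 0.20 and 0.68 CPM in Tbxt 48 h cells. The FGF/CHIR Sox2+ library held 0.51 CPM. It was listed at 128, 132 and 174 CPM in Tbxt DN cells, 31.9 CPM in FGF/CHIR DN cells and 2.89 CPM in FGF DN cells. Its level was thus seen mainly in cells negative for both reporters, and here replicate 1 of Tbxt DN cells lay beside the other replicates. On the log2(CPM + 1) scale, which understates changes from such low levels, Tbxt DN exceeded Tbxt 48 h cells by 6.67 ± 0.32 (limma adjusted p = 1.35e-08) and FGF/CHIR DN cells by 2.13 ± 0.40 (adjusted p = 0.00363; 0.0708 with a pseudocount of 0.25). DN exceeded Sox2+ cells by 3.02 ± 0.32 (adjusted p = 5.76e-05). The call for the medium over both gates (1.66 ± 0.32, adjusted p = 0.00465) came from the DN gate, where the difference was 3.08, while in the Sox2+ gate it was 0.24 (adjusted p = 0.771). Dkk2 passed the filter only through the Tbxt DN and FGF/CHIR DN libraries. Its differences between Tbxt DN and Tbxt 48 h cells, between the gates and between media in the DN gate were built into its selection. The tests give these differences no independent support. The summed level of 10 mesenchyme markers was 6702 to 8291 CPM in Tbxt DN libraries, 2436 CPM in the FGF/CHIR DN library and 413 CPM in the FGF DN library, against 70.0 to 553 CPM elsewhere (Lum at 0 in the 7 libraries up to 48 h). The part of such cells in the Dkk2 values was not tested.

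At 48 h, most of the members that passed the test were higher in Tbxt cells. In Tbxt 48 h cells 4 of 10 were higher than in NMPs (Nkd2, Frzb, Lef1 and Rspo3), against 7.82% of all tested genes. The median difference was 1.08 over the members and -0.02 over all tested genes. Apcdd1 and Dkk1 were also called higher than in NMPs without Tbxt DN replicate 1, as given above. The share of all genes is not given for that fit. Against Sox2 48 h cells, 5 of 10 were higher in Tbxt 48 h cells (Nkd2, Dkk1, Frzb, Lef1 and Rspo3), against 2.05% of all tested genes, with a median of 0.84 over the members and 0.02 over all tested genes. Without either Tbxt 48 h library 3 of the 5 passed. In Sox2 48 h cells 1 of 10 was lower than in NMPs (Rspo3, -1.12 ± 0.31, limma adjusted p = 0.0457), against 5.27% of all tested genes, with a median of -0.11 over the members and -0.01 over all tested genes. This call was lost in 12 of 21 alternatives, 8 of them without 1 library each (each NMP, Sox2 48 h and Tbxt 48 h library, and Tbxt DN replicate 2; adjusted p = 0.0608 to 0.243). Without Tbxt DN replicate 1, 4 passed here: Apcdd1 and Nkd2 were higher, against 4.34% of the genes then tested, and Dkk1 and Rspo3 were lower, against 7.85%. These 3 comparisons share libraries pairwise and are not independent of each other. The 5 presomitic mesoderm markers of 8 that passed the filter were all higher in Tbxt 48 h cells than in NMPs (median 3.63) and than in Sox2 48 h cells (median 4.43). Between the 48 h groups 3 of 8 neural progenitor markers were lower in the Tbxt cells. Each 48 h group had 3 of the 8 above NMPs, and 1 of the 8 was below NMPs in Tbxt 48 h cells only. Pluripotency markers were lower than in NMPs for 4 of 6 in Sox2 48 h and 6 of 6 in Tbxt 48 h cells. The part of these differences in cell type in the values of the members was not tested.

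From Sox2 48 h to FGF Sox2+ cells at 7 d, where time and medium change together, 5 of 10 members were lower (Apcdd1, Nkd2, Notum, Lef1 and Rspo3), against 6.51% of all tested genes, and 1 of 10 was higher (Frzb), against 18.2%. The median was -1.25 over the members and 0.17 over all tested genes. Here 6 of 8 neural progenitor markers (median 2.89), 5 of 5 tested neuron markers (median 4.30) and 4 of 6 pluripotency markers (median 2.31) were higher in FGF Sox2+ cells. Of 5 tested presomitic mesoderm markers 3 were higher and 1 lower (median 1.90), and of 5 tested somite markers 2 were higher (median 1.61). The part of these differences in the values of the members was not tested. Of the calls over all genes 73.7% were higher, 55.8% with median-of-ratios scaling and 52.2% with quantile normalization. Only Nkd2 and Lef1 were called in every alternative: without either Sox2 48 h library or FGF Sox2+ replicate 1 the members called were 2, and without FGF Sox2+ replicate 2 they were 3, while without Tbxt DN replicate 1 they were 9, with 2 higher, against 22.1% of the genes then tested, and 7 lower, against 8.53%. The Rspo3 estimate of -1.11 ± 0.34 (limma adjusted p = 0.0331) moved to -0.43 without FGF Sox2+ replicate 1 (adjusted p = 0.254). With CHIR kept, from Sox2 48 h to FGF/CHIR Sox2+ cells, 1 of 10 was higher (Nkd2), against 1.64% of all tested genes, and 4 were without Tbxt DN replicate 1 (Apcdd1, Nkd2, Notum and Frzb), against 3.31%. The median was 0.76 over the members and 0.12 over all tested genes, and these comparisons share the Sox2 48 h libraries. Here 90.6% of all calls were higher, and 80.4% with quantile normalization.

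**Figure D3:**
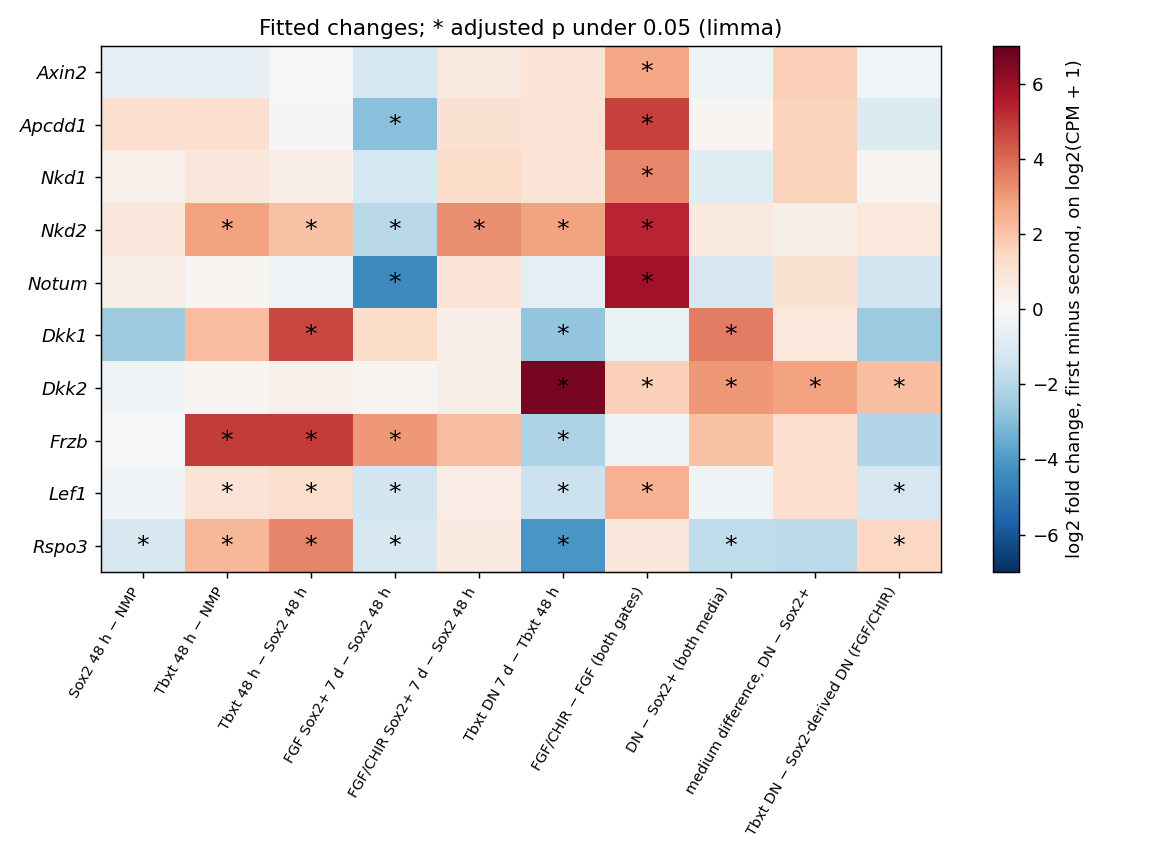
Fitted differences in log2(CPM + 1), first group minus second, for the 10 genes (vertical) in the 10 comparisons (horizontal), with an asterisk where the limma adjusted p was under 0.05. The medium comparison holds 7 asterisks, all of them for higher levels with CHIR. Rspo3 carries 7 asterisks and Nkd2 and Lef1 carry 6 each.

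Between the gates of the Sox2-derived cultures 2 of 10 members were higher in DN cells (Dkk1 and Dkk2), against 7.12% of all tested genes, and 1 of 10 was lower (Rspo3), against 6.99%, with a median of -0.05 over the members and -0.10 over all tested genes. Dkk2 passed the filter through DN libraries only, so its gate difference was built into its selection, as was that of its medium response. Of all calls 50.4% were higher, and 66.4% with median-of-ratios scaling. In DN cells 7 of 8 neural progenitor and 3 of 5 tested neuron markers were lower. There 5 of 5 tested endoderm, 5 of 10 mesenchyme and 2 of 6 pluripotency markers were higher. The part of these differences in the values of the members was not tested. Without Tbxt DN replicate 1, 6 of 10 members passed: Nkd2, Dkk1, Dkk2 and Frzb were higher in DN cells, against 9.59% of the genes then tested, and Notum and Rspo3 were lower, against 10.4%. The medium difference itself differed between the gates for 1 of 10 members (Dkk2, 2.84 ± 0.65 larger in the DN gate, limma adjusted p = 0.0386), against 1.69% of all tested genes, with medians of 1.14 and 0.04. This call was lost in 8 of 19 alternatives. Among them were those without NMP replicate 2 or 3, either Tbxt 48 h library or Tbxt DN replicate 2 or 3 (adjusted p = 0.0522 to 0.0690). For Axin2, Apcdd1, Nkd1, Nkd2, Notum and Lef1 the difference between gates was 0.40 to 1.65 and did not pass, and without Tbxt DN replicate 1 it passed for Apcdd1 (1.58, adjusted p = 0.0175) and Lef1 (1.17, adjusted p = 0.0437), against 3.62% of the genes then tested. Between DN cells of Tbxt and Sox2 origin in FGF/CHIR, 2 of 10 members were higher in Tbxt DN cells (Dkk2 and Rspo3), against 7.88%, and 1 of 10 was lower (Lef1), against 8.86%, with a median of -0.58 over the members and 0.03 over all tested genes. In Tbxt DN cells 5 of 5 tested endoderm and 4 of 6 pluripotency markers were lower and 3 of 10 mesenchyme markers higher. Their part was likewise not tested. Rspo3 was higher there by 1.46 ± 0.40 (adjusted p = 0.0258), a call lost without Tbxt DN replicate 3 (adjusted p = 0.0664). Without Tbxt DN replicate 1, 6 of 10 passed, 3 higher, against 11.1% of the genes then tested, and 3 lower, against 13.6%. The 3 added were Nkd2, higher by 1.14 (adjusted p = 0.0142), and Dkk1 and Frzb, lower at -3.78 and -3.00 (adjusted p = 1.18e-05 and 0.000232).

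From Tbxt 48 h to Tbxt DN cells, 2 of 10 members were higher (Nkd2 and Dkk2), against 30.7% of all tested genes, and 4 of 10 were lower (Dkk1, Frzb, Lef1 and Rspo3), against 23.5%. These shares are near the background, since 54.2% of all tested genes were called, and the medians were 0.12 over the members and 0.09 over all tested genes. The rise of Dkk2 was built into its selection by the filter. Of all calls 56.6% were higher, and 44.1% with quantile normalization. All 10 mesenchyme markers were higher in Tbxt DN cells (median 5.33) and all 5 tested presomitic mesoderm markers were lower (median -6.07), and their part in the values of the members was not tested. Without replicate 1 all 10 were called, 6 higher (Axin2, Apcdd1, Nkd1, Nkd2, Notum and Dkk2), against 30.8% of the genes then tested, and 4 lower, against 25.4%. Axin2 then rose by 1.79 (limma adjusted p = 0.000331), Apcdd1 by 1.93 (adjusted p = 1.55e-06), Nkd1 by 1.72 (adjusted p = 0.000568) and Notum by 0.91 (adjusted p = 0.000224). With all 3 libraries the estimates for Axin2, Apcdd1 and Nkd1 were 0.94 to 0.96 and that of Notum was -0.69 ± 1.19, the opposite sign.

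The 3 Tbxt DN libraries were therefore compared gene by gene, as a description with no test. In replicate 1, 5 of the 10 members lay more than 2-fold below both other replicates (Axin2, Apcdd1, Nkd1, Nkd2 and Notum), against 2.46% of all tested genes. A further 2 lay more than 2-fold above both (Dkk1 and Frzb), against 4.93%, and 3 lay within 2-fold of at least 1 of them (Dkk2, Lef1 and Rspo3). Replicates 2 and 3 lay within 2-fold of each other for 9 of the 10 members, all but Dkk1, while 1.64% of all tested genes lay further apart. The largest gap was that of Notum, at 6.11 CPM against 211 and 190 CPM. The low genes are the 5 feedback inhibitors, and the high ones are secreted antagonists whose levels in replicate 1, 66.7 CPM of Dkk1 and 63.2 CPM of Frzb, lay within the range of the Tbxt 48 h libraries.

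**Figure D4:**
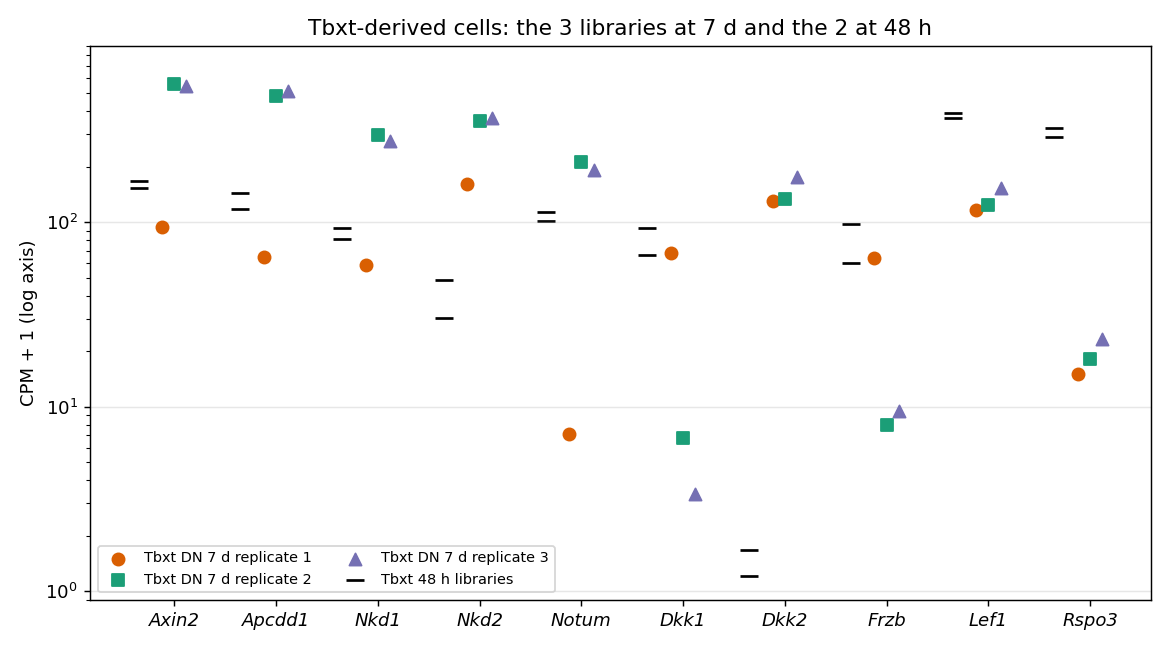
Levels (CPM + 1, log axis) of the 10 genes in the 3 Tbxt DN libraries at 7 d (symbols) and in the 2 Tbxt 48 h libraries (bars). Replicate 1 (orange circles) lies below the other replicates for Axin2, Apcdd1, Nkd1, Nkd2 and Notum, above them for Dkk1 and Frzb, and beside them for Dkk2, Lef1 and Rspo3.

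Other genes of the pathway, picked out after their values were seen, also differed in replicate 1. Wif1, a secreted WNT inhibitor, was listed at 12.2 CPM in replicate 1 against 159 and 136 CPM, and Sp5, a transcription factor induced by WNT, at 4.08 CPM against 27.7 and 20.5 CPM. Lgr4, a receptor for R-spondins, was listed at 130 CPM against 29.9 and 29.5 CPM. Genes in the lists of other targets and secreted modulators went both ways. The target gene Ccnd1 was listed at 172 CPM in replicate 1 against 415 and 465 CPM. Kremen1, listed with the modulators, was at 28.8 CPM against 68.3 and 65.3 CPM. Others did not lie lower in replicate 1. Bambi was listed there at 106 CPM against 45.1 and 40.0 CPM, and Tnfrsf19 at 44.5 CPM against 39.6 and 38.2 CPM. Sfrp2 was listed at 216 CPM against 33.1 and 44.5 CPM. How many genes of these lists went each way was not counted. The summed level of 4 smooth muscle markers was 207 CPM in replicate 1 against 8.36 and 15.1 CPM, with 3 of the 4 above the floor in replicate 1. That of 10 mesenchyme markers was 8291 CPM against 6702 and 8038 CPM, but single ones differed in both directions. Col1a1 was listed at 1610 CPM in replicate 1 against 210 and 476 CPM, and Postn at 46.3 CPM against 4.75 and 7.37 CPM. Twist1 was listed at 956 CPM against 1645 and 1862 CPM, and Prrx1 at 889 CPM against 895 and 832 CPM. The part of such cells in the values of the members was not tested.

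In the rest of the pathway some genes were higher and some lower with CHIR. Of 10 tested genes in a list of other WNT targets, 5 were higher and 2 lower in FGF/CHIR than in FGF, with a median of 0.71, against -0.03 over all tested genes. Over all tested genes 5.94% were higher and 7.86% lower, the background of this and the other counts for the medium. Sp5 (3.26 ± 0.60) and the receptor gene Tnfrsf19 (2.01 ± 0.22) were higher, and Cited1, a transcriptional co-regulator, was lower (-1.67 ± 0.34). Of 12 tested secreted modulators 2 were higher and 1 lower, the frizzled-related antagonist gene Sfrp1 (-2.76 ± 0.40, with 9.66 against 79.0 CPM), so that this relative of Frzb was lower where CHIR was present. Antagonist genes picked out by their values went both ways. With CHIR, Wif1 was listed at 6.37 CPM (Sox2+) and 28.8 CPM (DN), against means of 0.21 and 0 CPM without. Sostdc1 was at 4.93 and 19.2 CPM against 0.21 and 0 CPM, and Sfrp2 at 68.6 and 21.5 CPM against 370 and 32.0 CPM. Of 22 tested genes of the destruction complex and the nuclear effectors 5 were higher and 3 lower. Among these TCF genes Tcf7 was higher (1.75 ± 0.20) as Lef1 was, while Tcf7l2 was lower (-2.05 ± 0.41). Of 20 receptors and regulators of receptor turnover 6 were higher, among them the WNT receptor genes Fzd10 (2.54 ± 0.59) and Ptk7 (2.17 ± 0.19), and 3 were lower, among them Lgr4 (-1.77 ± 0.52). Of 10 genes of ligands and their processing 3 were higher, among them Wnt5b (2.86 ± 0.32) and Wnt6 (2.21 ± 0.24), and 5 lower. Limma adjusted p-values of the genes given here with an estimate were 1.91e-05 to 0.0465.

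The other lists also differed at 48 h and in Tbxt-derived cells. In Tbxt 48 h against Sox2 48 h cells, 2 of 20 receptors were higher (Fzd7 and Fzd1) and 2 lower, against 2.05% higher and 1.85% lower over all tested genes. Of 10 targets 2 were higher (the mesoderm factor gene Tbx6, and Cited1), as was 1 of 10 ligand genes and 1 of 22 destruction complex and nuclear genes, the co-repressor gene Tle4. The ligand was Wnt3a, listed at 0 in Sox2 48 h cells and at a mean of 33.3 CPM in Tbxt 48 h cells. From Tbxt 48 h to Tbxt DN cells 8 of 10 targets were lower, against 23.5% of all tested genes, among them the caudal factor gene Cdx2 (393 CPM at 48 h and 0.793 CPM at 7 d on average), Tbx6 and Cited1. Of 12 secreted modulators 6 were higher, against 30.7% of all tested genes, among them Kremen1, a partner of Dkk proteins (2.06 ± 0.31, limma adjusted p = 0.000128), Wif1 (5.43 ± 0.83, adjusted p = 0.000228) and the antagonist gene Sostdc1, listed at 61.1, 102 and 121 CPM in Tbxt DN cells and at 0 in Tbxt 48 h cells.

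Over the 8 group means of log2(CPM + 1), each member was set beside 9126 other tested genes, as a description in which 8 points share libraries and medium. Nkd2 was most like Has2, the gene of a hyaluronan synthase (r = 0.993), Dkk2 most like C1qtnf7 (r = 0.992) and the endothelin receptor gene Ednra (r = 0.990), and Nkd1 most like Tmem132c (r = 0.989). For Rspo3 the nearest was Nemf (r = 0.982), for Notum Epb41l2 (r = 0.972) and for Axin2 Pebp1 (r = 0.960). Likeness in shape did not mean likeness in range: Nemf ran from 59.9 to 94.1 CPM over the groups while Rspo3 ran from 5.71 to 305 CPM. Among the members themselves Axin2 had r = 0.943 with Nkd1, 0.919 with Notum, 0.918 with Apcdd1, 0.830 with Lef1 and 0.762 with Nkd2. With the other members Axin2 had r = 0.379 (Dkk2), 0.276 (Rspo3), -0.199 (Dkk1) and -0.263 (Frzb).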

How the data were processed

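Bulk RNA of 15 sorted cell libraries was measured. The authors deposited 1 table of CPM per gene and library, read counts scaled so that each library sums to 1000000. Per the submitters' processing notes, STAR 2.7, SAMtools 1.21 and the GRCm39 build were used, and the sources used here name no gene annotation or counting method. Gene rows with no name were left out and rows with the same symbol were summed. Because only 71.1 to 78.7% of values were whole multiples of 1 read within 0.01 reads, no count test was used. Values were tested as log2(CPM + 1) with limma 3.58.1 in R 4.3.3 (trend, robust), in 1 fit of 8 groups. The fit covered the 12943 genes that reached 5 CPM in 2 or more libraries, with Benjamini-Hochberg adjustment in each of 10 comparisons and a threshold of 0.05. It was tried on simulated data with the same spread beyond counting error in every library, read for Tbxt 48 h cells against NMPs only. That trial does not cover an outlying library or groups of 1 library. Alternatives changed the pseudocount, filter, scaling, weights, groups in the fit and replicate block, or left out each replicated library. The members and lists were chosen with earlier results of these data known. All 10 members were named, and of the other pathway lists up to 3 genes per comparison past the threshold, those with the largest changes among genes with a group mean of at least 20 CPM. Likeness to a member was ranked by Pearson correlation among such genes.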

Additional observations from a re-analysis of the deposited data

Results flagged for a closer look

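For Dkk2 the difference between FGF/CHIR and FGF cultures was not the same in the 2 sort gates: it was 2.84 ± 0.65 (log2(CPM + 1) scale) larger in DN than in Sox2+ cells by a test of the difference itself (limma adjusted p = 0.0386; 0.00203 to 0.363 over 19 alternatives). The DN libraries, 1 in each medium, listed Dkk2 at 31.9 CPM with CHIR and 2.89 CPM without, while the Sox2+ libraries listed it at 0.51 CPM with CHIR and at 0.64 and 0 CPM without. Dkk2 passed the filter of 5 CPM only through the Tbxt DN libraries and the FGF/CHIR DN library that is high here, so the difference was built into its selection and the test gives it no independent support. The summed level of 10 mesenchyme markers was 2436 CPM with CHIR and 413 CPM without in the DN libraries, and that of 6 endoderm markers was 187 and 1164 CPM. The part of such cells in the Dkk2 values was not tested.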

How the results depend on the processing

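Of 100 results, 10 genes in 10 comparisons, 37 passed the test, and 18 of these passed under every alternative run. None of the 37 changed sign. Among the 18 were Dkk2 in Tbxt DN against Tbxt 48 h cells and in DN against Sox2+ cells, differences built into its selection. Of 2059 alternative values 1883 kept direction and side of the threshold, 103 no longer passed, 54 newly passed and 19 changed sign; where no cause is given, the cause was not tested. Depth limits Dkk2, which was at or under 3 reads in 8 libraries, and in FGF Sox2+ replicate 2 any level under 3.76 CPM.

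For Sox2 48 h cells against NMPs the number of members passing was 0 with a pseudocount of 0.25, no filter, quantile normalization or the replicate block (limma adjusted p of Rspo3 0.0565 to 0.118), 4 with array weights, 3 with the compared groups alone and 0 to 4 leaving out 1 library. In Tbxt 48 h cells against NMPs it was 8 with the compared groups alone and 4 to 6 leaving out 1 library. Against Sox2 48 h cells it was 3 to 5, and for FGF Sox2+ against Sox2 48 h cells 2 to 9, leaving out 1 library. For FGF/CHIR Sox2+ against Sox2 48 h cells it was 2 with array weights, 4 with the compared groups alone and 1 to 4 leaving out 1 library. It was 4 to 10 for Tbxt DN against Tbxt 48 h cells and 6 to 8 for the medium leaving out 1 library, and 4 for the medium in the Sox2+ gate alone. For the gates it was 5 with array weights and 2 to 6 leaving out 1 library. For the difference between gates it was 0 with a pseudocount of 0.25 or a filter at 20 CPM (limma adjusted p of Dkk2 0.363 and 0.0708) and with the compared groups alone, where Dkk2 did not reach the filter, 3 with array weights and 0 to 3 leaving out 1 library. For Tbxt DN against FGF/CHIR DN cells it was 6 with array weights, 1 with the compared groups alone and 2 to 6 leaving out 1 library.

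Sign changes concerned estimates that did not pass the test, with the range leaving out 1 library. Frzb in Sox2 48 h cells against NMPs was -0.048 with a pseudocount of 0.25, -0.20 with the replicate block and -0.53 to 0.56. Dkk2 in Tbxt 48 h cells against NMPs was -0.13 to 0.35, and in FGF Sox2+ against Sox2 48 h cells -0.16 to 0.55. Between Tbxt and Sox2 48 h cells Axin2 was -0.082 to 0.032 and Apcdd1 -0.079 to 0.22. Notum in Tbxt DN against Tbxt 48 h cells was 0.54 with array weights and -1.54 to 0.91. Between gates in FGF/CHIR medium alone, Axin2 was 0.47 and Lef1 0.34, against -0.36 and -0.24 over both media. In Tbxt DN against FGF/CHIR DN cells, Axin2 was 0.46 with array weights and -0.62 to 0.66, Apcdd1 -1.49 to 0.0022, Nkd1 -0.22 to 0.95 and Notum -2.20 to 0.25. The scaling shifted the median of all tested genes by over 0.1 in 4 comparisons: by -0.16 and -0.19 (median of ratios and quantiles) for FGF Sox2+ and by -0.11 and -0.15 for FGF/CHIR Sox2+ against Sox2 48 h cells, by -0.19 (quantiles) for Tbxt DN against Tbxt 48 h cells and by 0.11 (median of ratios) between gates. No called member changed direction with the scaling. Over all tested genes, the number passing ranged over all alternatives from 315 to 3510 (reported fit 1025) for Sox2 48 h cells against NMPs, from 702 to 4834 (2376) for Tbxt 48 h cells against NMPs and from 124 to 1221 (505) between the 48 h groups. It ranged from 1453 to 3929 (3203) for FGF Sox2+ and from 87 to 1409 (234) for FGF/CHIR Sox2+ against Sox2 48 h cells, and from 5122 to 7961 (7014) for Tbxt DN against Tbxt 48 h cells. For the medium it was 1160 to 3908 (1786), for the gates 454 to 4032 (1826), for the difference between gates 186 to 1444 (316) and for Tbxt DN against FGF/CHIR DN cells 274 to 5592 (2167).

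The labels do not say that a replicate number marks a shared source, and correlations of the deviations of same-numbered libraries ran from -0.188 to 0.48 over 21 pairs. With the replicate block the members passing were 0 for Sox2 48 h cells against NMPs, 4 for Tbxt 48 h cells against NMPs, 5 between the 48 h groups, 6 for FGF Sox2+ against Sox2 48 h cells and 4 for Tbxt DN against Tbxt 48 h cells, where Dkk1 and Frzb gave adjusted p-values of 0.0673 and 0.0904. No paired analysis was possible for the other comparisons because their groups of 1 library carry no number.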
